A study of Rattus norvegicus with 60 samples.

Results

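Cytosolic ribosomal protein genes encode the proteins of the ribosome that translates nuclear messages, and their transcript levels were described here in 5 rat brain regions and 2 rat lines. The members were all probe sets, the array's unit for a transcript, whose only gene symbol in the platform's probe table begins with Rpl or Rps and a number, or is Rplp0, Rplp1, Rplp2 or Rpsa. Genes of the Rps6k kinases and symbols with -ps were left out, and the mean over the 60 arrays had to reach the 40th percentile of the 31042 non-control probe sets, a log2 signal of 7.68. Of 55 probe sets for 48 genes with such a symbol, 46 probe sets for 41 genes reached it, among 18625 probe sets of all kinds that did. They hold 32 probe sets for 29 genes of the large subunit and 14 for 12 genes of the small subunit. A further 36 probe sets carry a ribosomal protein symbol together with other symbols and are no members, so Rplp1, Rpl10, Rpl22l1, Rps27, Rps19, Rps4x and Rpl36a were not measured on their own.

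Frontal cortex, hippocampus, amygdala, striatum and accumbens of 12 adult rats were each hybridised to an array of their own. Every region thus has 6 animals of the NP line, selected for not preferring alcohol, and 6 that are congenic (NP.P). The labels do not describe the congenic segment, which is known from the literature to derive from alcohol-preferring P rats and to lie on chromosome 4 of an otherwise NP genome. The rats of both lines received no drug treatment that the labels name, were handled daily for 10 days, and RNA of each rat was labelled on its own. The study's title gives the question, candidate genes for alcohol preference, and the design also allows the regions to be compared within animals.

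The ribosome has a large subunit, which forms peptide bonds, and a small subunit, which reads the message, and each protein is needed in about the same number of copies. Transcripts of these proteins are among the most abundant of the cell, and many begin with an uninterrupted run of pyrimidines, the terminal oligopyrimidine or TOP motif. The kinase mTOR adjusts the translation of such messages through the RNA-binding protein Larp1, and neurons translate part of their messages in dendrites and axons. The arrays measured transcript levels in pieces of tissue, in which fewer cells of a type and less RNA per cell cannot be told apart, and gave no measure of translation.

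The annotated start sites are shown because the TOP run is what these genes are known to share and the selection did not use it. RefSeq promoter sequences of the GRCr8 assembly were matched for 35 of the 41 genes. The annotated first base was a C followed by at least 4 further C or T in 10 of the 35 (28.6%), against 881 of all 33469 promoters in the table (2.63%). In 5 more it was a T followed by at least 4 further C or T. A run of at least 5 pyrimidines at the annotated start, with either first letter, was thus present in 15 of the 35 (42.9%), against 1590 of all promoters (4.75%). In the lines that follow, 20 bases lie before the first transcribed base and 20 from it on, and capitals mark an unbroken run of at least 5 pyrimidines at the start. Rplp0, Rps15 and Rpl35 carry a run that begins with C and were among the lower transcripts in striatum. Rpl39 carries one too and had the highest difference in accumbens. Rpl12, with a run that begins with T, and Rpl18, with no run of this length at the annotated base, had large striatal differences.
Rplp0, GRCr8 chr12:46718371-46718410, minus strand: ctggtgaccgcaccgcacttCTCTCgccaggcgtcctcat
Rps15, GRCr8 chr7:10068096-10068135, minus strand: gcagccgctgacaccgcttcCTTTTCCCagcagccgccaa
Rpl35, GRCr8 chr3:43165902-43165941, minus strand: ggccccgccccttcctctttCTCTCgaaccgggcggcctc
Rpl39, GRCr8 chrX:121195877-121195916, minus strand: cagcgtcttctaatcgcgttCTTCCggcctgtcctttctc
Rpl12, GRCr8 chr3:36661920-36661959, plus strand: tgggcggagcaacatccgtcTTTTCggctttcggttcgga
Rpl18, GRCr8 chr1:105325250-105325289, plus strand: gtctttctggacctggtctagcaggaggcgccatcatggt

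The count depends on which base is annotated as the first, and a match or its absence is a description of these letters only. In the 300 bases from 250 before to 50 after the start, on both strands, TCTCGCG was present in 8 of the 35 promoters (22.9%, against 2.39% of all), CCGGAAG in 9 (25.7%, against 8.75%), GGGCGG in 21 (60%, against 33.1%), AAGATGGC in 4 (11.4%, against 3.17%) and TATAAA in 4 (11.4%, against 14.2%). Members whose run began with C had a median log2 difference of -0.23 in striatum against the other regions (10 probe sets, range -0.38 to -0.05). Those whose run began with T had -0.16 (6 probe sets, range -0.59 to -0.01), and those with a matched promoter and no run there had -0.18 (23 probe sets, range -0.52 to -0.02). The 3 ranges overlap.

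The median log2 signal of an array was 8.23 to 8.35, and precision is limited by how many animals there were. Of the 60 arrays, 7 had a profile unlike that of their region: amygdala congenic 3, amygdala NP 6, hippocampus congenic 3, hippocampus NP 8, hippocampus NP 11, accumbens NP 8 and accumbens congenic 9. Of these, 4 resembled another region more than the labelled one, in pairs within an animal, and none of the other arrays did. In animal 3 the array labelled amygdala resembled hippocampus and the one labelled hippocampus resembled amygdala. In animal 8 the same held for the arrays labelled accumbens and hippocampus. The labels were kept, and the cause was not tested. Markers of medium spiny neurons, the main neurons of striatum and accumbens, averaged 11.73 to 12.64 log2 units on the striatum arrays and 8.95 to 9.24 in frontal cortex. In accumbens they lay between 8.69 and 11.80 and in hippocampus between 8.73 and 11.85, so single arrays there went against the label. In amygdala they lay between 8.82 and 11.94, and the highest, on amygdala NP 6, was within the striatum range. Counts are therefore given with all arrays and without these 7. Striatum and frontal cortex hold none of them.

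Ribosomal protein transcripts were lowest in striatum. Each region was compared with the mean of the other 4 regions of the same animals in limma, with adjusted p under 0.05 as the limit for a call. In striatum 39 of the 46 members (84.8%) were lower and 0 higher, where 69.6% of all 18625 probe sets were called in either direction, 43.3% lower. The median log2 difference was -0.19, against -0.07 over all probe sets, and all 46 members had a negative sign (range -0.59 to -0.01), as had 44 of 46 after quantile normalization. Both subunits took part, with 27 of 32 probe sets of the large subunit (median -0.18) and 12 of 14 of the small subunit (median -0.21). Among 1385 other probe sets with a mean of 12 or more, a level that 39 of the 46 members reached, 364 were higher and 616 lower, with a median of -0.06. Without the 7 arrays, 42 members were lower and 0 higher, where 78.2% of all probe sets were called, 48.4% lower.

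The mean over the 46 members lay between 12.74 and 12.87 on the striatum arrays (median 12.78). It was 12.87 to 13.03 in accumbens (median 12.96), 12.90 to 13.05 in frontal cortex (12.96), 12.93 to 13.11 in hippocampus (13.00) and 12.81 to 13.19 in amygdala (13.05). Striatum lay below each of the other regions in 12 of 12 animals. The mean differences were -0.17 ± 0.05 against accumbens, -0.18 ± 0.05 against frontal cortex, -0.22 ± 0.04 against hippocampus and -0.26 ± 0.08 against amygdala (SD, n = 12 animals). The only array outside striatum within its range was the one labelled amygdala congenic 3, at 12.81, apart from an accumbens array at the edge (12.87). The array ranges of the 4 regions above striatum overlap. Accumbens minus frontal cortex was -0.00 ± 0.04 (higher in 4 of 12 animals), hippocampus minus frontal cortex 0.05 ± 0.06 (higher in 9) and amygdala minus hippocampus 0.04 ± 0.11 (higher in 10). Leaving out the 7 arrays gave -0.00 ± 0.05 (higher in 3 of 10 animals), 0.04 ± 0.06 (7 of 9) and 0.07 ± 0.06 (7 of 8).

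**Figure D1:**
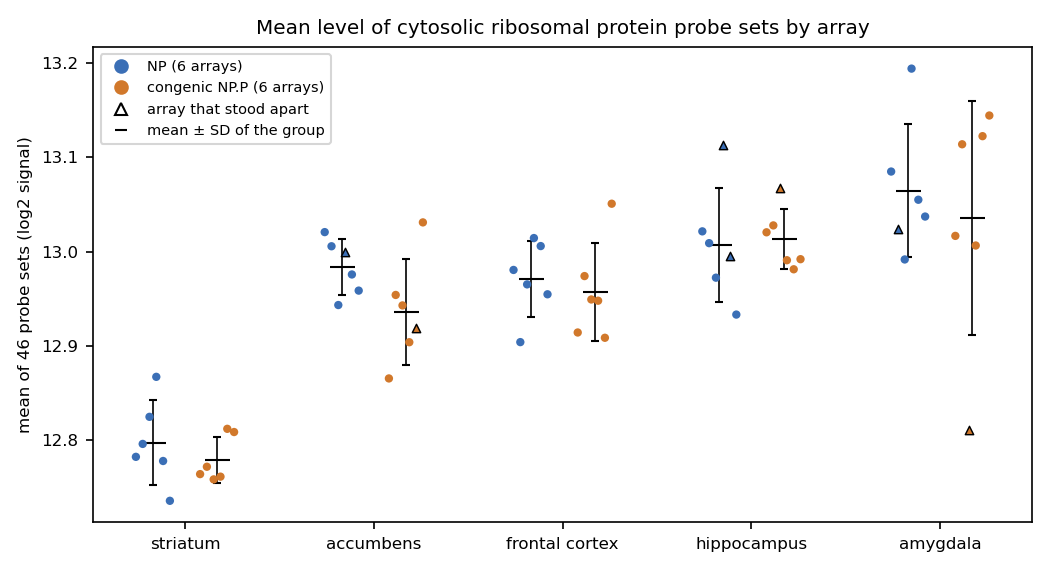
Mean log2 signal of the 46 ribosomal protein probe sets on each array (vertical axis) by region (horizontal axis), with NP arrays in blue, congenic arrays in orange, triangles for the 7 arrays that stood apart, and bars for the mean ± SD of 6 arrays. Striatum arrays lie between 12.74 and 12.87 and the 2 lines overlap in every region.

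The largest differences in striatum belonged to probe sets of 3 genes, Rpl12, Rpl18 and Rpsa. Rpsa also had probe sets at -0.20 and -0.02. Rpl12, part of the base of the stalk where elongation factors bind, lay between 12.97 and 13.28 on the 12 striatum arrays (median 13.11). Its values were 13.14 to 13.94 in accumbens (13.56), 13.34, on the array labelled amygdala congenic 3, to 14.00 in amygdala (13.74), 13.56 to 14.06 in hippocampus (13.66) and 13.56 to 14.19 in frontal cortex (13.77). Striatum overlapped only with accumbens, whose lowest array was accumbens congenic 9. The log2 difference was -0.59 ± 0.05 (SE), 1.5-fold lower, with a limma adjusted p of 3.43e-14.

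Rpl18, a protein of the large subunit, lay between 12.66 and 12.90 in striatum (median 12.78), below every other array, of which the lowest was at 13.00. Its log2 difference was -0.49 ± 0.03 (SE), 1.40-fold lower (limma adjusted p = 2.13e-20). Rpsa, which binds at the back of the small subunit and is also known as a laminin receptor, was measured by 3 probe sets. On probe set 1388244_s_at it lay between 11.98 and 12.17 in striatum (median 12.07), and the lowest array elsewhere was at 12.33. The log2 difference was -0.52 ± 0.03 (SE), 1.43-fold lower (limma adjusted p = 4.20e-18). Rpl18 and this probe set were the 2 members whose striatum arrays all lay under every other array, against 2.07% of all probe sets. Without the 7 arrays there were 7 such members, against 3.51%.

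Rplp0, the scaffold protein of the stalk and a common reference gene for expression assays, lay between 12.70 and 12.84 in striatum (median 12.76). It lay between 12.95 and 13.12 in frontal cortex (13.06), 13.11 and 13.46 in amygdala (13.27), and 13.15 and 13.48 in hippocampus (13.26). Striatum was below all arrays of these 3 regions. In accumbens it spanned 12.13 to 13.12 (12.99), with accumbens congenic 9 at the low end. The striatal difference was -0.37 ± 0.04 (SE), 1.30-fold (limma adjusted p = 4.24e-10).

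**Figure D2:**
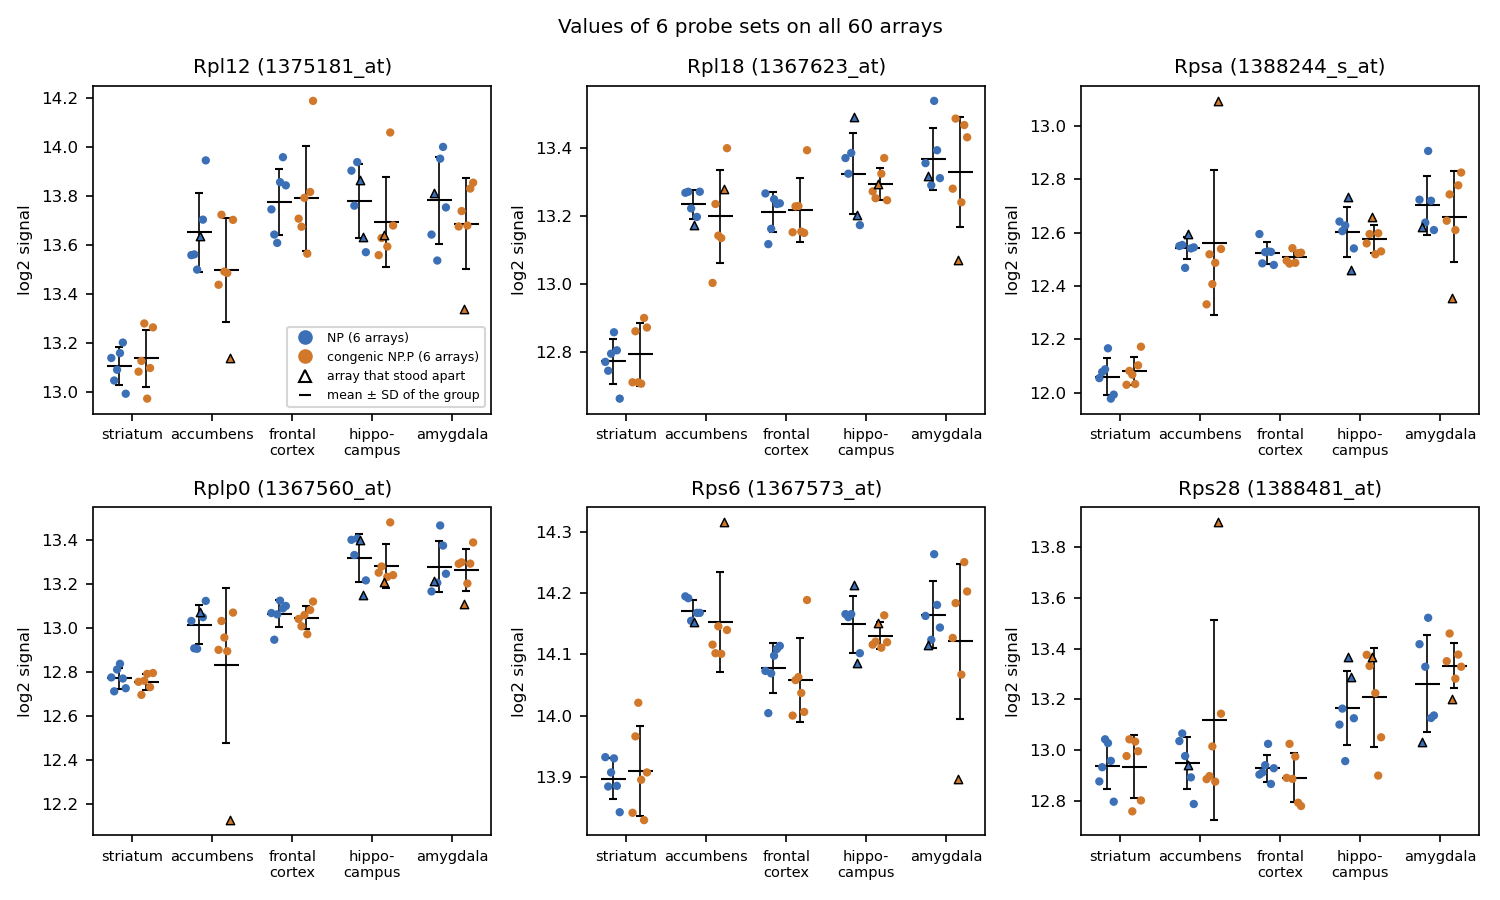
Log2 signal of Rpl12, Rpl18, Rpsa (1388244_s_at), Rplp0, Rps6 and Rps28 on all 60 arrays by region, with NP in blue, congenic in orange, triangles for arrays that stood apart and bars for the mean ± SD of 6 arrays. Striatum arrays of Rpl18 (up to 12.90) and of this probe set of Rpsa (up to 12.17) lie under all others. Those of Rps28 overlap with accumbens, frontal cortex and hippocampus and, at the edge, with amygdala.

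Rps6, the small-subunit protein that S6 kinases phosphorylate after neuronal activity, lay between 13.83 and 14.02 in striatum (median 13.90). Its medians elsewhere were 14.07 (frontal cortex), 14.14 (hippocampus), 14.15 (amygdala) and 14.15 (accumbens). Its arrays overlapped with those of amygdala, where the lowest lay at 13.90, and with frontal cortex, where the lowest lay at 14.00. The difference was -0.23 ± 0.02 (limma adjusted p = 3.85e-12). Rpl11, which with Rpl5 can bind Mdm2 and stabilise p53, was lower, at -0.16 ± 0.04 (limma adjusted p = 5.71e-04). Rpl5 itself was not called, at -0.03 ± 0.04 (limma adjusted p = 0.545), and its arrays ran from 13.52 to 13.78 in striatum and from 13.29 to 13.95 elsewhere. Rpl22, which also binds RNA outside the ribosome, was at -0.18 ± 0.03 (limma adjusted p = 2.84e-06).

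Differences were small. Of the 39 called members 10 were lower by 1.2-fold or more, 21.7% of the 46, against 20.8% of all probe sets. The mean of the other regions lay above striatum in all 12 animals for 31 of the 46 (67.4%), against 29.1% of all probe sets, in 11 animals for 8 and in fewer for 7. The 7 members not called in striatum were Rpl5, Rpl21, Rpl39, Rps29, 1 probe set of Rpl7l1, 1 of Rpsa and 1 of Rpl3. They lay between -0.08 and -0.01. Across the 46 members the mean level and the striatal difference had a Pearson correlation of -0.07 and a Spearman correlation of 0.01, over genes measured on the same arrays.

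**Figure D3:**
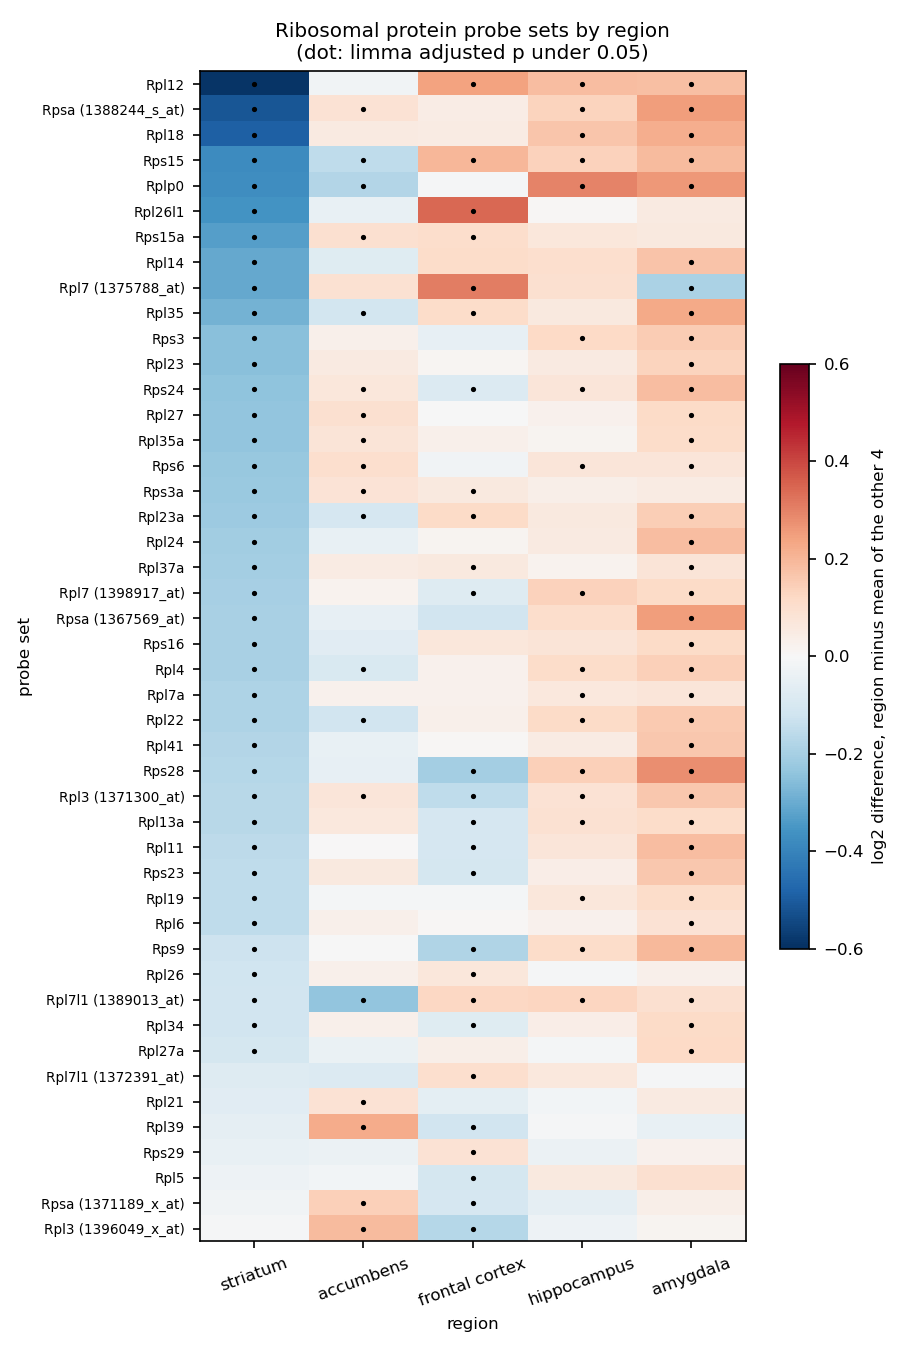
Log2 difference of each region from the mean of the other 4 (colour scale, blue lower and red higher) for the 46 members, ordered by their difference in striatum, with a dot where the limma adjusted p was under 0.05. On the deposited scale the striatum column holds no value above 0 (39 dots; 2 members without a dot turned positive after quantile normalization), amygdala holds 34 higher calls, and accumbens and frontal cortex hold both directions.

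Probe sets of 1 gene did not always give the same value. The 4 genes with several members hold 9 probe sets. The 3 probe sets of Rpsa had striatal differences of -0.52 (1388244_s_at), -0.20 (1367569_at, limma adjusted p = 0.00281) and -0.02 (1371189_x_at, limma adjusted p = 0.501). Those of Rpl3, which reaches close to the peptidyl transferase centre, were at -0.17 (1371300_at, limma adjusted p = 2.53e-07) and -0.01 (1396049_x_at, limma adjusted p = 0.893). Rpl7 was at -0.20 (1398917_at) and -0.31 (1375788_at), both called. Rpl7l1, a paralogue of Rpl7, was at -0.12 (1389013_at, limma adjusted p = 0.00578) and -0.08 (1372391_at, limma adjusted p = 0.0621). Ribosomal protein genes have many processed copies in mammalian genomes, and suffixes _s and _x mark probes shared with other sequences, so single values of such probe sets are uncertain.

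The members nearest the signal limit were 1396049_x_at of Rpl3 (mean 7.71), 1375788_at of Rpl7 (7.99) and Rpl26l1 (8.26). Just below it lay Rps4y2 (7.31), 1 probe set of Rps24 (6.95) and Rps27l (6.79), a p53-responsive paralogue of Rps27. The other members had means of up to 15.1.

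In amygdala 34 members were higher and 1 lower, where 47.8% of all probe sets were called, 29.1% higher. The median difference was 0.12, against 0.04 over all probe sets. Without the 7 arrays the counts were 39 and 0, where 62.8% of all probe sets were called, 39.2% higher. Rps28, a small protein beside the messenger channel, lay between 13.03 and 13.52 in amygdala (median 13.33). It lay between 12.76 and 13.04 in striatum (12.97), 12.78 and 13.02 in frontal cortex (12.91), 12.90 and 13.38 in hippocampus (13.19), and 12.79 and 13.90 in accumbens (12.96). Amygdala and frontal cortex did not overlap. The difference was 0.28 ± 0.06 (SE, limma adjusted p = 5.58e-05), and 0.34 without the 7 arrays. Rplp0 was higher by 0.26 and 1367569_at of Rpsa by 0.25. The lower probe set was 1375788_at of Rpl7 (-0.19, limma adjusted p = 0.0388), with a limma adjusted p of 0.0967 without the 7 arrays and 0.128 without animal 3. The other probe set of Rpl7 was higher by 0.12.

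In hippocampus 18 members were higher and 0 lower, where 54.3% of all probe sets were called, 33.1% higher. The members' median was 0.07, against 0.04 for all probe sets. Without the 7 arrays 20 members were called, 19 of them higher, where 64.8% of all probe sets were called, 38.4% higher. Without those arrays the medians were 0.04 for members and 0.03 for all. The share of members called was below that of all probe sets. Rplp0 had the largest difference, 0.30 ± 0.04 (SE, 1.23-fold, limma adjusted p = 2.90e-07), followed by Rpl12 (0.18) and Rpl18 (0.17). After quantile normalization 10 members were called, 9 of them higher.

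Accumbens and frontal cortex held members in both directions. In accumbens 12 were higher and 7 lower, where 62.4% of all probe sets were called (23.5% higher, 38.9% lower), and the median of the members was 0.02, against -0.05 for all. It was 0.06 after quantile normalization and 0.01 after median centring, with 25 of 46 members above 0 as deposited and 36 after quantile normalization. Rpl39, a very small protein at the exit tunnel, lay between 8.99 and 9.29 in accumbens (median 9.19), above the medians of 8.89 to 8.99 in the other regions but overlapping with each. Its difference was 0.22 ± 0.03 (SE, limma adjusted p = 1.08e-08). The _x probe sets of Rpl3 (0.19) and Rpsa (0.14) were also higher. Lower were 1389013_at of Rpl7l1 (-0.23, limma adjusted p = 6.94e-07), Rplp0 (-0.17) and Rps15 (-0.15), a protein of the small subunit's head. Without the 7 arrays these were -0.18, -0.11 and -0.10, all called, and without animal 9 alone Rps15 was at -0.09 (limma adjusted p = 0.0517). The counts without the 7 arrays were 16 higher and 10 lower, where 70.4% of all probe sets were called (25.6% higher, 44.8% lower).

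In frontal cortex 13 members were higher and 13 lower, where 61.3% of all probe sets were called (35.6% higher, 25.7% lower). The medians were 0.01 for members, which turned to -0.03 after quantile normalization, and 0.03 for all. Rpl26l1, a close paralogue of Rpl26, lay between 8.31 and 9.03 in frontal cortex (median 8.50) and between 7.82 and 8.06 in striatum (7.98), with no overlap of these 2 regions. It was higher by 0.34 ± 0.04 (SE, 1.27-fold, limma adjusted p = 9.45e-11). Next came 1375788_at of Rpl7 (0.31) and Rpl12 (0.24). Lower were Rps28 (-0.20), Rps9 (-0.18), a protein of the small subunit body, and 1396049_x_at of Rpl3 (-0.17). Rps28 was thus called higher in amygdala and lower in frontal cortex.

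Over the 5 regions, the lowest mean fell in striatum for 38 of the 46 members, in frontal cortex for 6 and in accumbens for 2. Of all probe sets, 35.4% had their lowest mean in striatum, 17.6% in frontal cortex and 26.4% in accumbens. The highest mean fell in amygdala for 29 members, against 18.4% of all probe sets. It fell in frontal cortex for 8 members (28.1% of all probe sets), in accumbens for 6 (15.5%) and in hippocampus for 3 (19.9%). The calls share arrays, since each region serves in the comparison of the other 4. Of the members, 34 (73.9%) were called lower in striatum and higher in amygdala, against 19.7% of all probe sets. Lower in striatum and higher in accumbens were 8 members (17.4%, against 7.73%), and lower in both were 7 (15.2%, against 16.9%).

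Other measures also differed between striatum and some of the other regions. The 75th percentile of the array signal had a median of 9.84 in striatum and 9.82 in accumbens, and of 9.96 in each of the other 3 regions. The difference between 3′ and 5′ probes of Gapdh is a sign of RNA integrity. Its median was 0.09 in striatum (range 0.05 to 0.26) and -0.06 to -0.03 in the other regions. Ranges elsewhere were -0.10 to 0.15 (frontal cortex), -0.09 to 4.56 (accumbens), -0.08 to 0.51 (hippocampus) and -0.10 to 0.00 (amygdala). The values of 4.56 and 0.51 belonged to accumbens congenic 9 and hippocampus NP 11, both among the arrays that stood apart. The same difference for actin had a median of 1.10 in striatum, 1.07 in frontal cortex, 1.06 in accumbens, 0.93 in amygdala and 0.89 in hippocampus. Of all probe sets, 26.3% were called higher in striatum and 43.3% lower. In striatum all 11 marker probe sets of medium spiny neurons and 12 of 17 of myelin were higher, and 9 of 11 of meninges were lower. Their mean levels were 12.27 to 12.59 for myelin in striatum (median 12.44) and 11.73 to 12.14 in frontal cortex (11.93). Hippocampus was close to striatum for myelin, at 12.17 to 12.58 (12.42), and the medians were 12.20 in accumbens and 11.89 in amygdala. For meninges they were 8.28 to 9.12 in striatum (8.81), 8.72 to 10.56 in hippocampus (9.12) and 8.44 to 10.59 in frontal cortex (9.73), with medians of 10.07 in accumbens and 10.25 in amygdala.

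Of the other lists in striatum, astrocytes had 1 higher and 7 lower of 13 probe sets, microglia 2 and 5 of 9, endothelium 1 and 7 of 13, neurons 7 and 5 of 16, choroid plexus 0 and 2 of 3, and red blood cells 1 and 2 of 3. The shares of all probe sets there were 26.3% higher and 43.3% lower. In amygdala 9 of 11 meningeal, 9 of 13 astrocyte and 6 of 9 microglial probe sets were higher, and 10 of 17 of myelin were lower. Of all probe sets, 29.1% were higher in amygdala and 18.6% lower. Counts of the other lists in amygdala are not given here. The part of cell makeup, RNA integrity and array scaling in the ribosomal protein differences was not tested.

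Members moved together between arrays. After group means were removed, the median Pearson correlation over pairs of members was 0.34 across the 60 arrays (middle of the pairs from 0.07 to 0.62), against 0.06 for pairs of the 1385 other probe sets of high signal. These arrays share animals, scaling and RNA quality, and they include the 7 that stood apart, so the value is a description. Where an array resembled another region, removing the mean of its labelled group leaves region differences in. No value without the 7 arrays is given. The SD of a member over the 60 arrays had a median of 0.15, against 0.21 for all probe sets and 0.18 for the others of high signal. Outside the members, the named genes whose profile over the 60 arrays was most like the mean of the members, by Pearson correlation with region differences included, were Psme2 (0.904), Naca (0.897), Rnaset2 (0.895), Psmd10 (0.893) and Psme1 (0.893). Naca is a subunit of the complex that receives nascent chains at the ribosome, and Psme1 and Psme2 are subunits of a proteasome activator.

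Lists of other genes of translation are read against the 43.3% of all probe sets lower and 26.3% higher in striatum. Of 48 probe sets of initiation factors, 5 were higher and 31 lower (median log2 difference -0.17), among them Eif3l at -0.59 (1398929_at), while 1381339_at of Eif3k was higher by 0.20 and another probe set of Eif3k was lower. Of 13 of elongation and termination factors, 2 were higher and 7 lower (median -0.09). Eef1a2, the neuronal and muscle form of the factor that brings aminoacyl-tRNA, was higher by 1.14 ± 0.08 (SE, limma adjusted p = 2.29e-16). A probe set of Eef1a1, the form of most other cells, was lower, at -0.07, and the value of its other probe set is not given here. The ribosome recycling factor Abce1 was lower too, at -0.39.

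Of 20 probe sets of other TOP transcripts, 1 was higher and 12 lower (median -0.14), among them a probe set of Hnrnpa1 (-0.45), Eif3h (-0.41) and Vim (-0.57). Hnrnpa1 has further probe sets in this list, whose values are not given here. The lists are not separate, since Eef1a1, Eef1b2, Eef1d, Eef1g, Eef2, Eif3f, Eif3h and Eif4b are also among the initiation or elongation factors. Of 61 of ribosome biogenesis, 4 were higher and 38 lower (median -0.17), with the nucleolar GTPase Gnl3 at -0.54 and the RNA polymerase subunit Polr1c at -0.45. Ribosomal proteins of mitochondria, which form a separate ribosome, had 6 higher and 74 lower of 90 (median -0.28), from Mrpl16 at -0.63 to Mrpl38 at 0.79. The list of mTOR and S6 kinase signalling had 8 higher and 7 lower of 26 (median -0.04), with Rps6kb1, an S6 kinase, at -0.31 (1398396_at) and a probe set of Larp1 at 0.40. Both genes have further probe sets in this list, whose values are not given here. Eif4ebp1 and Eif4ebp2 of this list are also among the initiation factors.

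In frontal cortex 66 of 90 mitochondrial ribosomal protein probe sets were higher and 3 lower (median 0.18), beside 13 and 13 of the 46 cytosolic ones (median 0.01) and 35.6% and 25.7% of all probe sets. In accumbens 4 of 48 initiation factor probe sets were higher and 30 lower (median -0.15), beside 12 and 7 of the cytosolic members (median 0.02) and 23.5% and 38.9% of all probe sets. In amygdala the medians of the initiation factors (0.10), other TOP transcripts (0.10) and mitochondrial ribosomal proteins (0.10) were all above 0, as was that of the members (0.12). Differences between lists, some of which share genes, were not tested.

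**Figure D4:**
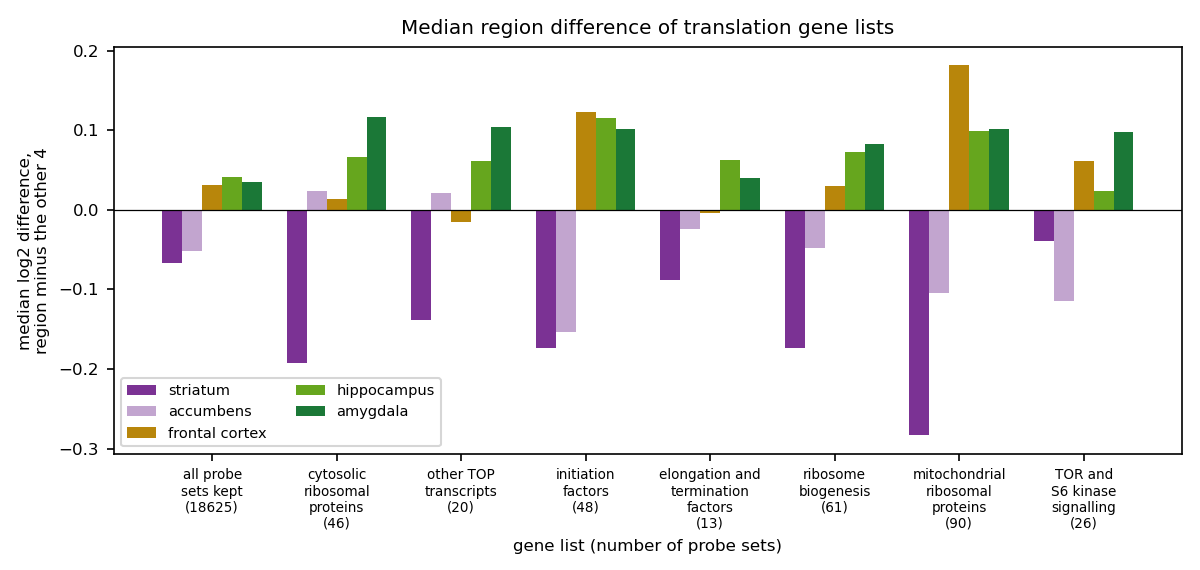
Median log2 difference of each region from the other 4 (bars, from 0) for all 18625 probe sets, the 46 members and 6 other translation lists, with the number of probe sets in parentheses. Some of the 6 lists share genes. On the deposited scale the striatum bar is below 0 for every list, from -0.04 for mTOR and S6 kinase signalling to -0.28 for mitochondrial ribosomal proteins.

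Between the lines, no ribosomal protein transcript was called. Averaged over the 5 regions of each animal and compared between 6 congenic and 6 NP animals in limma, 0 of 46 members passed, 0 had an unadjusted p under 0.05, and 0.123% of all probe sets were called. The median difference, congenic minus NP, was -0.02, against -0.00 over all probe sets, and single members lay between -0.08 and 0.05, 36 below 0 and 10 above (28 and 18 after quantile normalization). The animals of the lines overlapped for all 46 members. Of all probe sets, only 0.328% had lines that did not overlap, so the overlap does not set the members apart. The 95% intervals of the differences all held 0 and ran from -0.19 (Rps15) to 0.13 (Rps28) at their widest. With the chromosomes of GRCr8, 0 of the 44 members with a known chromosome lie on chromosome 4. The share of all probe sets on that chromosome is not given here, and a bearing on the line result was not tested.

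The 3 members with the smallest p were Rpl24, Rplp0 and Rps16. Rpl24, a large-subunit protein that contacts the small subunit, had animal means of 12.98 to 13.10 in NP (median 13.01) and of 12.82 to 13.07 in congenic rats (12.95). The lines overlapped, with a difference of -0.07 ± 0.04 (SE, limma adjusted p = 0.911). Rplp0 was at 13.02 to 13.18 in NP (13.08) and 12.94 to 13.12 in congenic rats (13.03), a difference of -0.05 ± 0.03 (limma adjusted p = 0.911), with the same sign in the 5 regions. Rps16, which reaches toward the tRNA sites of the small subunit, was at 13.98 to 14.06 in NP (13.99) and 13.90 to 14.05 in congenic rats (13.93), a difference of -0.05 ± 0.03 (limma adjusted p = 0.914). Without the 7 arrays the 3 differences were -0.03, -0.02 and -0.03.

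**Figure D5:**
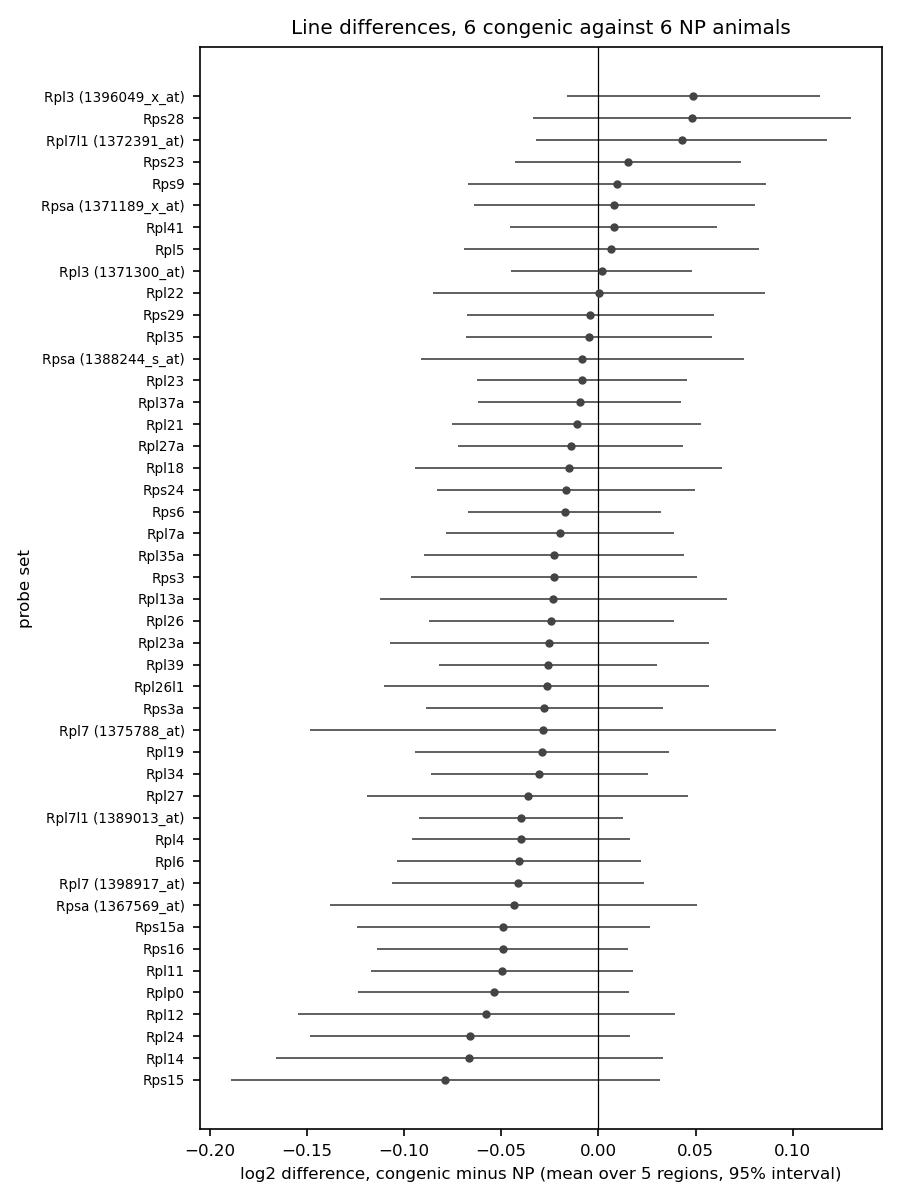
Log2 difference between congenic and NP animals for the 46 members (points, means over 5 regions, 6 animals a line) with 95% intervals from limma. Every interval crosses 0, and the points lie between -0.08 and 0.05.

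Within single regions 0 of 46 members were called as well. All probe sets were called at 0.0644% in striatum, 0.00537% in accumbens, 0.0322% in amygdala, 0.00537% in hippocampus and 0.0537% in frontal cortex. At an unadjusted p under 0.05, limma gave 1 member in striatum, 1 in hippocampus and 0 in the other 3 regions. The medians were -0.02 in striatum, -0.03 in accumbens, -0.03 in amygdala, -0.00 in hippocampus and -0.02 in frontal cortex. After quantile normalization those of accumbens and amygdala were 0.00 and 0.01. With the 7 arrays left out, the medians were -0.04 in accumbens, 0.01 in amygdala and 0.00 in hippocampus. In accumbens 42 of 46 members were then below 0, against 31 with all arrays. Above 0 were 31 members in amygdala, against 10 with all arrays, and 26 in hippocampus, against 21. The medians over all 18625 probe sets moved as well. They were -0.02 in accumbens, 0.01 in amygdala and 0.01 in hippocampus, against -0.00, -0.00 and 0.00 with all arrays. Of all probe sets, 11712 were then below 0 in accumbens, and 10214 were above 0 in amygdala and 10207 in hippocampus. The interaction of line and region, a limma F test of whether the line difference varied between regions, gave 0 of 46 members (0% of all probe sets) and 0 members at an unadjusted p under 0.05. The mean over the 46 members was 12.80 ± 0.04 in NP and 12.78 ± 0.02 in congenic striatum (SD, n = 6 each), so striatum was the lowest region in both lines.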

How the data were processed

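The deposited values are log2 signals of 31099 probe sets on 60 Affymetrix rat arrays, summarized by the authors. Background correction and array scaling were not given in the sources used here. Control probe sets, 57 in number, were left out, and every column was mapped to a sample (0 unmapped). Gene symbols came from the platform's probe table, and 46 members were found by the symbol rule and the 40th percentile of signal.

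Region and line comparisons were fitted over 18625 probe sets in limma 3.58.1 (R 4.3.3, data.table version 1.17.8), 2-sided, with Benjamini-Hochberg adjustment and calls at an adjusted p under 0.05. Regions were compared with the animal as a fixed block, and lines on animal means (6 against 6) or on the 12 arrays of a region. No source names batches. Figures used Python 3.11.15, matplotlib 3.10.9, numpy 2.4.6 and pandas 2.3.3.

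Per the labels, arrays that share a number share an animal. For 120 such pairs the mean correlation of deviations from the group was 0.0139, and for 1320 other pairs -0.00184. The steps were tested on simulated data.

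The members and lists were chosen with earlier results of these data known. Named were the 3 highest and 3 lowest called members of each region comparison, the 3 smallest p of the line comparison, members with known roles, genes with several probe sets, those nearest the signal limit and up to 3 called genes per list, and any other gene was chosen with its values in view. An array counted as apart when its correlation with its region had a median under 0.98, or its region profile correlated under 0.5. Alternatives covered normalization, centring, filter, prior, probe set choice, block, and leaving out those arrays or each animal.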

Additional observations from a re-analysis of the deposited data

Results flagged for a closer look

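For the mean over the 46 members and for 7 probe sets (Rplp0, Rpl12, Rpl18, Rpsa, Rps6, Rps15 and Rps28), in 10 groups each, the highest or lowest of the 6 arrays of a group lay far from the nearest other array, relative to the group's range, in 12 of 80 cases. All 12 were single probe sets. Chance gives about 1 in 20. Of the 12, 5 fell on arrays that stood apart in their whole profile.

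On accumbens congenic 9, Rplp0 was at 12.13, under the other congenic accumbens arrays (12.89 to 13.07), while Rpsa (1388244_s_at) at 13.10, Rps6 at 14.32 and Rps28 at 13.90 were above theirs. The Gapdh 3′ minus 5′ difference of this array was 4.56 log2 units, the highest in accumbens, where the median was -0.04. On the array labelled amygdala congenic 3, Rpl12 was at 13.34, under the other arrays of its group (13.67 to 13.85).

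In hippocampus congenic 9, Rplp0 at 13.48, Rpl12 at 14.06 and Rps15 at 13.81 were high in their group. In frontal cortex congenic 10, Rpl18 at 13.39, Rps6 at 14.19 and Rps15 at 14.05 were high. In frontal cortex NP 6, Rplp0 at 12.95 was low. The causes were not tested.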

How the results depend on the processing

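Of 238 counts of members called under an alternative, 237 stayed within 1.5 times the main count, and of 219 medians, 217 moved by less than the spread between animals. These tallies say little, since many entries had no room to move. Line and interaction counts were 0 in the main setting and in every alternative. Medians stay the same by design where only the prior, the block or the removal of the filter changes. The count and medians that moved further came from quantile normalization: 10 members called in hippocampus in place of 18, a striatum median of -0.15 in place of -0.19, and a frontal cortex median of -0.0283 in place of 0.01. It also gave higher shares of all calls of 46.8% in striatum (37.7% as deposited), 53.7% in accumbens (37.6%), 48.4% in amygdala (61%), 48.0% in hippocampus (60.9%) and 48.3% in frontal cortex (58.1%). Under it, 1371189_x_at of Rpsa (0.0264) and 1372391_at of Rpl7l1 (0.0219) turned sign in striatum, and 1396049_x_at of Rpl3 did so without the arrays that stood apart (0.0151) and without animal 9 (leaving out 1 animal at a time gave -0.0232 to 0.0081). None of these was called. The cause was not tested.

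Calls kept in all 18 settings were 38 of 39 in striatum, 32 of 35 in amygdala, 14 of 26 in frontal cortex, 9 of 18 in hippocampus and 8 of 19 in accumbens. Leaving out 1 animal at a time gave 39 to 41 members called in striatum, 32 to 37 in amygdala, 22 to 29 in frontal cortex, 16 to 22 in accumbens and 14 to 25 in hippocampus, and 0 in every line comparison and the interaction.

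Without the replicate block, 39 members were called in striatum, 19 in accumbens, 35 in amygdala, 18 in hippocampus and 26 in frontal cortex, the same numbers as with the animal as a block. The animal as a random block (consensus correlation -0.0158) gave 0 members called between lines in each region. The lines share no animal numbers, so no pairing between lines was possible.

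Limits are the 6 animals a line, differences mostly under 1.2-fold, the unstated normalization, arrays that went against their region, probes shared between related sequences, and the tissue mixture.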
